A study of Mus musculus with 12 samples.

Results

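AMPA-type glutamate receptors are cation channels built from the 4 pore-forming subunits that Gria1, Gria2, Gria3 and Gria4 encode. The transmembrane AMPA receptor regulatory proteins (TARPs) are auxiliary subunits that bind these channels, and Cacng4, Cacng5, Cacng7 and Cacng8 encode 4 of them. These 8 genes were taken by name from a table of 55401 gene identifiers, and all 8 were among the 16135 genes that passed a filter on low counts. They were followed through 12 RNA-seq libraries of cells cultured from the subventricular zone of CD1 mice, the layer of neural stem and progenitor cells beside the lateral ventricles. Postnatal neural stem cell (NSC) cultures were neurospheres, free-floating clusters of dividing progenitors, from pups at postnatal days 0 to 2. Adult NSC cultures were neurospheres from animals 2 months old. Both were kept for 6 to 7 days in serum-free medium with 2% B27 supplement, FGF (10 ng/mL), EGF (20 ng/mL) and heparin (2 ug/mL). Postnatal oligodendrocyte precursor cell (OPC) cultures were monolayers plated from dissociated postnatal neurospheres and kept for 2 days with 2% B27, FGF (10 ng/mL) and PDGF-AA (10 ng/mL). Each group had 4 libraries, from 4 litters per the labels. The OPC and neurosphere groups thus differed in growth factors, listed heparin, culture form and days in culture together. OPC and adult NSC differed in the age of the animals as well. The effects of these cannot be told apart. Every postnatal NSC library was also read more deeply than any library of the other groups. Read depth thus went with group in both comparisons against postnatal NSC, so adult against postnatal NSC was not a contrast of age alone.

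AMPA receptors carry fast excitatory transmission between neurons. In the brain, OPCs also bear AMPA receptors and receive glutamatergic synapses from axons. A channel assembles from 4 subunits, and its calcium permeability depends on the Gria2 product: channels that hold the RNA-edited form of that subunit pass little calcium. The products of Cacng4 and Cacng8, with those of Cacng2 (stargazin) and Cacng3, form the type I TARPs. These promote delivery of the channels to the cell surface and slow their gating. The products of Cacng5 and Cacng7 form type II.

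On the GRCm38 build, Gria1 lies on chr11:57011387-57330244 (plus strand), Gria2 on chr3:80681450-80802835 (minus), Gria3 on chrX:41400854-41678601 (plus) and Gria4 on chr9:4417896-4796234 (minus). The TARP genes sit in clusters of related genes. Cacng4 on chr11:107732357-107794557 and Cacng5 on chr11:107874605-107915055 are both on the minus strand, 80047 bases apart, and Cacng1 lies 15834 bases from Cacng4. Cacng7 on chr7:3332955-3368221 and Cacng8 on chr7:3390683-3415648 are both on the plus strand, 22461 bases apart, and Cacng6 lies 8546 bases from Cacng8.

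The 250 bases upstream of the annotated start are shown for Gria2 and Gria4, which rose in OPC, and for Cacng5, which fell there. Capitals mark E-boxes (CANNTG, the core site of basic helix-loop-helix factors, searched on both strands). The windows are chr3:80802836-80803085, chr9:4796235-4796484 and chr11:107915056-107915305, all on the minus strand and printed 5′ to 3′, from RefSeq on GRCm38.p6.

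Gria2: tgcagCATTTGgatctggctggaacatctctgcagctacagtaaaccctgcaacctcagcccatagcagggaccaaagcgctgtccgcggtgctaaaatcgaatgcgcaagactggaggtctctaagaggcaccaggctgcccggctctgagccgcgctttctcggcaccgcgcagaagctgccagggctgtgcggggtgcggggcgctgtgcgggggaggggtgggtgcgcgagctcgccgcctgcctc
Gria4: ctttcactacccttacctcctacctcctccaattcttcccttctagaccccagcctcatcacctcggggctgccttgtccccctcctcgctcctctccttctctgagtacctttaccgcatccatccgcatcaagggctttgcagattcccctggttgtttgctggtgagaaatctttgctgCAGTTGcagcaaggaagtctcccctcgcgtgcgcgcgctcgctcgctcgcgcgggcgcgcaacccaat
Cacng5: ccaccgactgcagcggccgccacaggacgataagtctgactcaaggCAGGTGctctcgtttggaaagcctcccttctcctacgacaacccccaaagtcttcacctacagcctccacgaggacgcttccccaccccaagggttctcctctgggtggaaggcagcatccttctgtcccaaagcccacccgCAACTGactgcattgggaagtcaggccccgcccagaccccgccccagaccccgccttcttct

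The Gria2 window held 1 E-box and the Gria4 window 1, while the Cacng5 window held 2. Among 32851 RefSeq mouse promoter windows of the same length, 66.2% held at least 1 E-box. The Cacng5 window also held 2 GC boxes (GGGCGG, either strand), a motif in 32.7% of windows, and neither the Gria2 nor the Gria4 window held one. The Gria4 window held 1 SOX-type site (ACAANG, either strand), a motif in 36.3% of windows. GC content was 64.8% for Gria2, 58.8% for Gria4 and 62% for Cacng5, against a median of 52.4% over all windows. The ratio of observed to expected CpG was 0.728, 0.833 and 0.55 in the same order, against a median of 0.373. The windows of a rising and a falling gene were thus not set apart by the E-box. Of the 8 genes, 5 were in the promoter table, and Cacng7 and Cacng8 had listed starts away from the 5′ end of the gene model. The window of Cacng7, which rose in OPC, held 1 GC box and 0 E-boxes, with its start 130 bases from that end. The Cacng8 window, with its start 3359 bases away, held 0 of either. Cacng5 had a second listed start, 3693 bases from the 5′ end of its model, whose window is not shown. It held 1 E-box and 0 GC boxes, with a GC content of 56.8% and a CpG ratio of 0.107.

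Total gene counts per library ran from 38928989 to 54801726 in postnatal NSC, from 16756231 to 20064043 in adult NSC and from 17226501 to 23651396 in OPC. The summed level of 5 OPC markers was 4130 to 7130 CPM (read counts scaled to a common normalised library size) in OPC, 2020 to 3320 CPM in postnatal NSC and 2100 to 2420 CPM in adult NSC. Olig1 and Olig2 made up most of the neurosphere sums, and single markers differed between the NSC groups. Pdgfra, the receptor for PDGF-AA, had 1433 ± 710.2 CPM in OPC, 230.0 ± 59.6 in postnatal NSC and 12.2 ± 2.98 in adult NSC (SD, n = 4), without overlap. Sox10 had 190.5 ± 130.1, 136 ± 70.3 and 12.4 ± 1.48 CPM in the same order. In OPC against postnatal NSC, Pdgfra, Cspg4 and Olig2 were called higher by edgeR's test at an adjusted p under 0.05. Olig1 (log2 0.41, edgeR adjusted p = 0.081) and Sox10 (log2 0.49, edgeR adjusted p = 0.382) were not called there. The log2 fold change of adult against postnatal NSC was -4.23 for Pdgfra (edgeR adjusted p = 4.01e-06) and -3.46 for Sox10 (edgeR adjusted p = 0.000167), and the part of this in the results on the 8 genes was not tested. For 6 NSC markers the sum was 4540 to 7480 CPM in OPC and 6530 to 7920 CPM in postnatal NSC, which overlapped, and 8790 to 9540 CPM in adult NSC. Its members went both ways in OPC against postnatal NSC, by edgeR's test at an adjusted p under 0.05. Vim (log2 -1.71), Nes (-1.04), Egfr (-0.77) and Prom1 (-0.63) were called lower, and Fabp7 (0.89) and Sox2 (0.73) higher. The Prom1 call was lost in 7 of 20 alternative settings. Some libraries stood apart from the rest of their groups. Over 24 genes of the G1/S transition, which mark cells entering DNA synthesis, the mean log2 CPM was 4.88 in postnatal NSC replicate 3 and 4.53 in OPC replicate 2, against 5.87 to 6.58 in the other 10 libraries. The Y-linked gene Ddx3y was near 0 in postnatal NSC replicates 2 and 3 and adult NSC replicate 1, where Xist stood at 837 to 1340 CPM. Both genes were present in postnatal NSC replicate 4 (Ddx3y 16.1 and Xist 544 CPM) and OPC replicate 1 (19.6 and 987 CPM), and Xist was under 1 CPM in the other 7 libraries, so libraries of unlike sex stood in every group. In bulk RNA, fewer cells of a type and less RNA per cell cannot be told apart.

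In OPC against postnatal NSC, 5 of the 8 genes rose (Gria2, Gria3, Gria4, Cacng4 and Cacng7), 2 fell (Gria1 and Cacng5) and Cacng8 was not called. Calls rest on edgeR's quasi-likelihood test, adjusted by Benjamini-Hochberg over all 16135 genes, at an adjusted p under 0.05. By the same test 45.1% of all genes tested were called, 22.4% higher and 22.7% lower. The median log2 fold change of the 8 genes was 0.86 and that of all genes tested -0.01. In OPC against adult NSC, all 8 genes were called, 5 higher and 3 lower, where 51% of all genes were called (26.3% higher and 24.7% lower). The median there was 0.81, against 0.01 for all genes. In adult against postnatal NSC, Gria2 and Cacng4 fell, Cacng8 rose and the other 5 were not called, where 53.1% of all genes were called (25.2% higher and 27.9% lower). The median there was 0.04, against -0.03 for all genes. Each pair of these comparisons shares a group of libraries, so the 3 sets of values are not independent of each other. With both low-G1/S libraries left out, the numbers of the 8 genes called in each direction were the same in all 3 comparisons. When counts were thinned to the smallest library to even the read depth, no call of the 8 genes was lost or gained. Thinning leaves any other difference in sequencing between the groups in place, and the part of that was not tested.

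**Figure D1:**
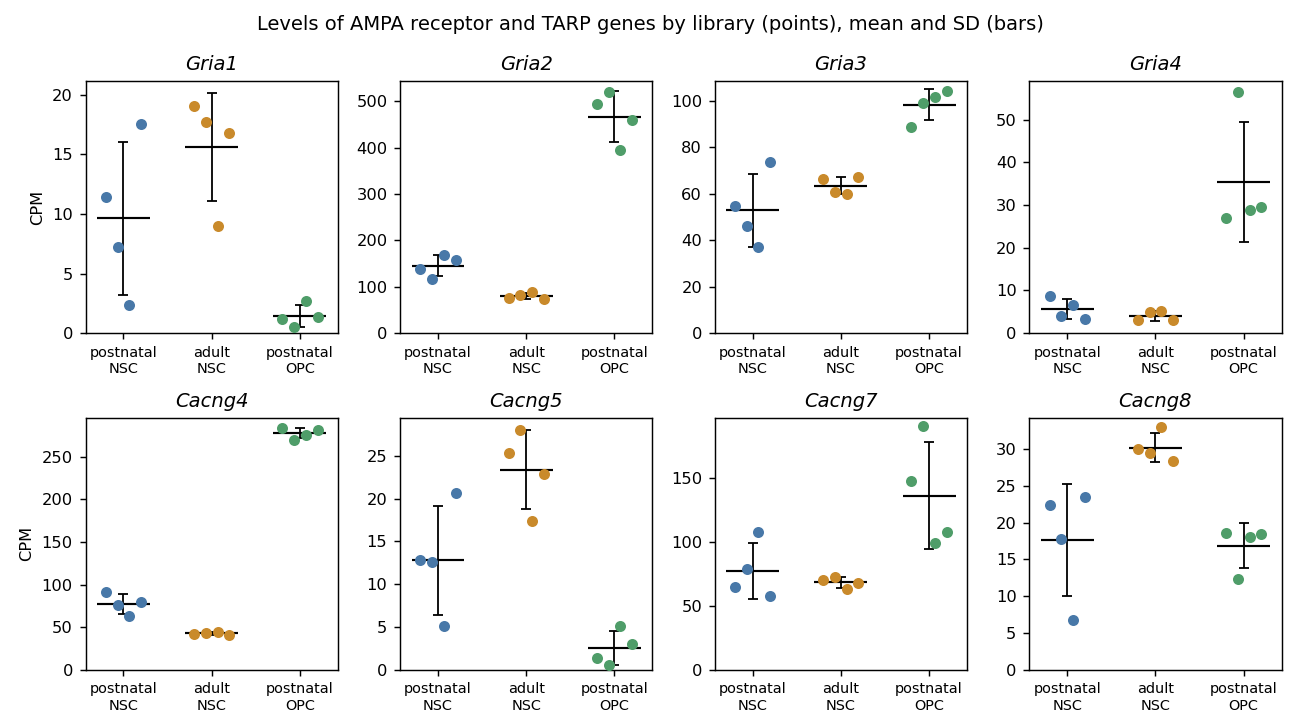
Level of each of the 8 genes in CPM (vertical axis, linear) in the 4 libraries of each group (points), with the mean (wide bar) and SD (whiskers). Gria2, Gria3, Gria4 and Cacng4 in OPC lie above every neurosphere library, while Gria1 and Cacng5 have their lowest means in OPC.

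Gria2, whose edited product limits calcium entry, was the most abundant subunit transcript in OPC. Its level in OPC replicates 1 to 4 was 493, 520.5, 395 and 459 CPM. The postnatal NSC libraries had 138, 116, 168 and 157 CPM, and the adult NSC libraries 75.8, 82.0, 89.2 and 72.5 CPM. No group overlapped another, and the order was OPC, postnatal NSC, adult NSC. From postnatal to adult NSC the level fell 1.81-fold (log2 fold change -0.86 ± 0.12 (SE), edgeR adjusted p = 0.000195). OPC exceeded adult NSC 5.84-fold (log2 fold change 2.55 ± 0.13, edgeR adjusted p = 5.02e-08), and exceeded postnatal NSC by 1.69 ± 0.13 on the log2 scale. Over 20 alternative settings the last of these stayed between 1.56 and 1.76.

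Gria4, which encodes a subunit with fast kinetics that is prominent early in brain development, rose in OPC by a larger factor from a low base. OPC replicates 1 to 4 had 26.9, 56.4, 28.9 and 29.5 CPM. Postnatal NSC libraries had 8.67, 4.00, 6.51 and 3.33 CPM, and the adult NSC libraries 2.95, 4.83, 5.18 and 3.15 CPM. Every OPC library was above every neurosphere library, and the 2 NSC groups overlapped. The fold change was 6.31 against postnatal NSC (log2 2.66 ± 0.34, edgeR adjusted p = 8.34e-05) and 8.79 against adult NSC (log2 3.14 ± 0.36, edgeR adjusted p = 2.07e-05). Adult and postnatal NSC differed by -0.48 ± 0.34 on the log2 scale (adjusted p = 0.256). OPC replicate 2, one of the libraries low in G1/S genes, held the highest Gria4 level of the 12. Without it and postnatal NSC replicate 3, the log2 fold change against postnatal NSC was 2.42 (edgeR adjusted p = 9.72e-05). Over 20 alternatives, which included a DESeq2 Wald test beside edgeR fits, the adjusted p ran from 7.15e-14 to 0.00125.

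Gria3, the X-linked subunit gene, showed the smallest rise of the 3 subunits that rose. It stood at 88.7, 99.0, 101.3 and 104.1 CPM in OPC. Levels in postnatal NSC were lower, at 54.7, 45.8, 37.0 and 73.5 CPM, and the adult NSC libraries 66.1, 60.5, 59.7 and 66.9 CPM. OPC lay above both NSC groups without overlap, while adult NSC fell inside the spread of postnatal NSC. The fold change was 1.86 against postnatal NSC (log2 0.90 ± 0.16, edgeR adjusted p = 0.000917) and 1.55 against adult NSC (log2 0.63 ± 0.16, adjusted p = 0.00653). Adult and postnatal NSC differed by 0.26 ± 0.16 (adjusted p = 0.192). Without postnatal NSC replicate 4, its highest library, that difference was 0.42 with an edgeR adjusted p of 0.0130, the lowest over 20 alternatives, of which the highest was 0.482. Adult NSC replicate 1, where Ddx3y was at 0, had a Gria3 level inside the range of the other adult libraries. OPC replicate 1, the OPC library with Xist, had the lowest Gria3 level of its group. With the Ddx3y level as a covariate, the log2 fold change against postnatal NSC was 0.75 (edgeR adjusted p = 0.00834). This p was the highest over 20 alternatives, edgeR fits and a DESeq2 Wald test, of which the lowest was 2.57e-06.

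Gria1, whose product is the subunit phosphorylated by CaMKII and protein kinase A in neuronal plasticity, went the other way. OPC replicates 1 to 4 had 1.16, 0.53, 2.71 and 1.34 CPM, which came from only 13 to 47 reads a library. The adult NSC libraries had 19.0, 17.7, 8.95 and 16.8 CPM. Postnatal NSC was spread wider, at 11.45, 7.19, 2.35 and 17.5 CPM. Postnatal NSC replicate 3, low in G1/S genes, was the lowest of its group and lay below OPC replicate 3, so these 2 groups overlapped. The level was 6.84-fold lower in OPC than in postnatal NSC (log2 -2.77 ± 0.58, edgeR adjusted p = 0.00224) and 11.1-fold lower than in adult NSC (log2 -3.47 ± 0.60, edgeR adjusted p = 0.000447), with no overlap in the latter. With both low-G1/S libraries left out, the log2 fold change against postnatal NSC was -2.82 (edgeR adjusted p = 0.000223). Over 20 alternatives, edgeR fits and a DESeq2 Wald test, the adjusted p ran from 1.51e-06 to 0.0108. Adult against postnatal NSC gave 0.70 ± 0.51 (adjusted p = 0.266), and the libraries of these groups overlapped.

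Cacng4, a type I TARP gene expressed prominently in the developing brain, rose with Gria2 and was the steadiest of the 8 genes within OPC. Its OPC libraries had 283.5, 270.1, 276 and 282 CPM, a coefficient of variation of 2.17%. In postnatal NSC the levels were 91.2, 76.3, 62.7 and 79.4 CPM, and the adult NSC libraries 42.3, 43.0, 44.7 and 40.3 CPM. All 3 groups were separate, in the same order as for Gria2. OPC exceeded adult NSC 6.52-fold (log2 2.71 ± 0.10, edgeR adjusted p = 4.1e-09) and postnatal NSC 3.59-fold. Adult NSC was 1.82-fold lower than postnatal NSC (log2 -0.86 ± 0.10, edgeR adjusted p = 4.15e-05).

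Cacng7, a type II TARP gene, rose less and with more spread. OPC replicates 1 to 4 had 147, 190.2, 99.1 and 108 CPM. The postnatal NSC libraries had 64.8, 78.4, 108 and 57.8 CPM, and the adult NSC libraries 70.0, 72.3, 62.8 and 68.1 CPM. Postnatal NSC replicate 3 lay among the lower OPC libraries, so the 2 postnatal groups overlapped, while OPC and adult NSC did not. The low-G1/S library held the highest Cacng7 level in both the postnatal NSC and the OPC group. The fold change was 1.76 against postnatal NSC (log2 0.82 ± 0.22, edgeR adjusted p = 0.00836) and 1.99 against adult NSC (log2 0.99 ± 0.22, adjusted p = 0.00231). With both low-G1/S libraries left out, the first of these log2 values was 0.81 (edgeR adjusted p = 0.000673, the lowest over 20 alternatives, of which the highest was 0.0313). Adult and postnatal NSC differed by -0.18 ± 0.22 (adjusted p = 0.507), and by 0.02 without postnatal NSC replicate 3 (edgeR adjusted p = 0.924, with 0.208 to 0.932 over 20 alternatives).

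Cacng5, the other type II TARP gene, fell in OPC as Gria1 did. OPC replicates 1 to 4 had 1.40, 0.53, 5.13 and 3.03 CPM, from 13 to 89 reads. The adult NSC libraries had 25.3, 28.1, 17.3 and 22.8 CPM, and the postnatal NSC libraries 12.9, 12.6, 5.08 and 20.6 CPM. Again only postnatal NSC replicate 3 reached down to the highest OPC library. The level was 5.18-fold lower in OPC than in postnatal NSC (log2 -2.37 ± 0.54, edgeR adjusted p = 0.00379) and 9.46-fold lower than in adult NSC (log2 -3.24 ± 0.56, adjusted p = 0.000456). The size of this fall depended on single OPC libraries. Without OPC replicate 3 the log2 values were -2.96 and -3.84, and without OPC replicate 2 they were -2.04 and -2.88, which were the 2 ends of the range over 20 alternatives. Adult against postnatal NSC gave 0.87 ± 0.49 (adjusted p = 0.154).

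Cacng8, a type I TARP gene best known from the hippocampus, followed neither pattern. The adult NSC libraries had 30.0, 29.5, 32.9 and 28.3 CPM, above every other library. The postnatal NSC libraries had 22.4, 17.8, 6.76 and 23.5 CPM, and the OPC libraries 18.6, 12.3, 18.0 and 18.5 CPM. OPC and postnatal NSC overlapped, with a log2 difference of -0.06 ± 0.29 (adjusted p = 0.876). That sign was not stable, since without postnatal NSC replicate 1 the difference was 0.05. Adult NSC was 1.71-fold above postnatal NSC (log2 0.78 ± 0.29, edgeR adjusted p = 0.0412) and OPC 1.79-fold below adult NSC (log2 -0.84 ± 0.30, adjusted p = 0.0315). Both calls sat near the threshold: the first was lost in 10 of 20 alternative settings (edgeR adjusted p from 0.00185 to 0.0911) and the second in 7 (0.000182 to 0.0838). Leaving out adult NSC replicate 3 gave adjusted p values of 0.0859 and 0.0692. With both low-G1/S libraries left out, the differences were smaller in size and the spread lower, at 0.50 (edgeR adjusted p = 0.00185) and -0.71 (edgeR adjusted p = 0.000182).

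**Figure D2:**
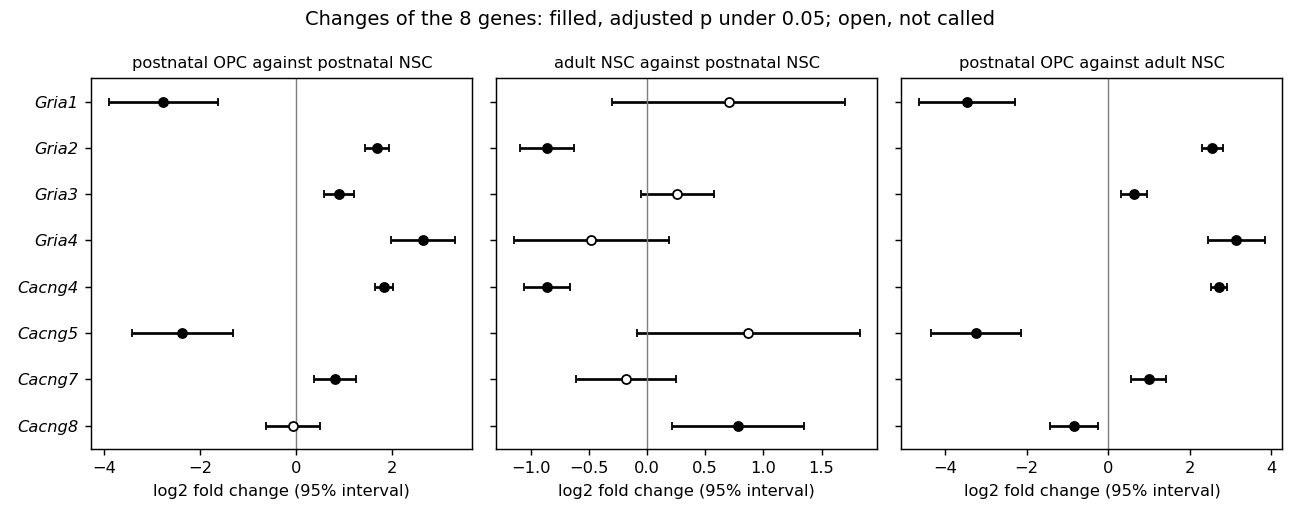
Log2 fold change of each gene (horizontal axis) in the 3 comparisons, with bars for the 95% interval; filled points passed an edgeR adjusted p of 0.05. Between OPC and either NSC group Gria1 and Cacng5 lie to the left while Gria2, Gria3, Gria4, Cacng4 and Cacng7 lie to the right.

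Complete separation of the libraries was counted beside the test. Between OPC and postnatal NSC, 4 genes were higher in all OPC libraries than in all postnatal NSC libraries and none was lower in all. Of all genes tested, 34.9% were separate in this way, 18% higher and 16.9% lower. Between OPC and adult NSC, 5 genes were fully higher and 3 fully lower, where 56.6% of all genes were separate (27.9% higher and 28.7% lower). Between adult and postnatal NSC, 1 gene was fully higher and 2 fully lower, where 53.2% of all genes were separate (27.2% higher and 26% lower).

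Scaled per kilobase of exon so that genes can be compared, the summed level of the 4 subunits was 45.9 ± 4.91 CPM per kb in OPC (SD, n = 4). It was 17.2 ± 2.99 in postnatal NSC and 14.8 ± 0.502 in adult NSC. Gria2 made up 65.5 ± 3.41% of that sum in OPC (62.4% to 70.2%), 54.9 ± 8.78% in postnatal NSC (48.1% to 67.6%) and 34.8 ± 4.16% in adult NSC (31.6% to 40.7%). The adult range lay below both others, while the 2 postnatal groups overlapped. Gria3 held 43.4 ± 2.28% of the sum in adult NSC, the largest mean share there, 30.9 ± 5.25% in postnatal NSC and 21.9 ± 2.91% in OPC. Gria1 held 17.4 ± 4.65% in adult NSC, 8.87 ± 4.81% in postnatal NSC and 0.547 ± 0.395% in OPC, where its highest share, 1.1%, was under the lowest of any neurosphere library, 2.44%. Gria4 held 12.0 ± 3.41% in OPC, against 5.32 ± 2.29% in postnatal NSC and 4.34 ± 1.32% in adult NSC. The ratio of Gria2 to Gria1 per length was 1.55 to 3.87 in adult NSC, 3.48 to 27.7 in postnatal NSC and 56.7 to 382 in OPC. These are shares of transcript, and neither the edited state of the Gria2 transcript nor the protein was measured.

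The summed level of the 4 TARP genes was 141.0 ± 14.8 CPM per kb in OPC, 64.1 ± 1.99 in postnatal NSC and 58.9 ± 2.26 in adult NSC. Cacng7 was the largest share in both neurosphere groups, at 49.1 ± 12.9% in postnatal and 47.5 ± 1.54% in adult NSC, and held 38.8 ± 7.81% in OPC. Cacng4 held 55.5 ± 6.18% in OPC (47.6% to 60.9%), 33.8 ± 5.4% in postnatal NSC (26.6% to 39.3%) and 20.3 ± 1.18% in adult NSC (19.5% to 22.0%), with no overlap between groups. Cacng8 held 21.9 ± 1.93% in adult NSC, 11.8 ± 5.3% in postnatal NSC and 5.18 ± 1.29% in OPC. Cacng5 held 10.3 ± 1.69%, 5.27 ± 2.77% and 0.497 ± 0.429% in the same order. The type I genes Cacng4 and Cacng8 together held 60.7 ± 7.43% in OPC, 45.6 ± 10.5% in postnatal NSC and 42.2 ± 3.1% in adult NSC. The type I share in OPC (50.9% to 67.0%) overlapped that in postnatal NSC (31.0% to 53.9%) and lay above that in adult NSC (40.0% to 46.8%).

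**Figure D3:**
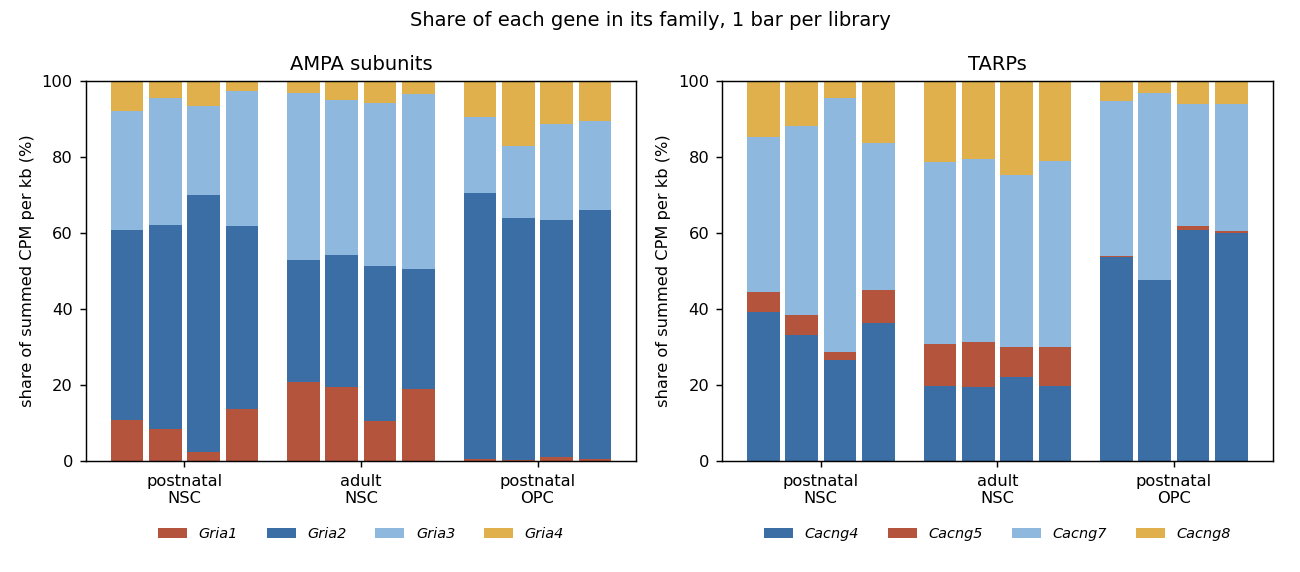
Share (%) of each gene in the summed level per kilobase of its family, 1 stacked bar per library in replicate order, for the 4 AMPA receptor subunits and the 4 TARP genes. Gria1 nearly vanishes from the OPC bars, with a mean of 0.547%, and Cacng4 takes 47.6% to 60.9% of the TARP level there.

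Likeness of profile across the 12 libraries was the root-mean-square difference of mean-centred log2 CPM, compared with 12965 other named genes, with all points sharing the 3 groups and their depth. The gene most like Gria1 was Cacng5, at 0.37 (Gria1 itself varied by 1.69 on this measure), and Gria1 was the second most like Cacng5. Their counts kept a ratio of 0.444 to 1.0 in every library, while Gria1 ran from 0.53 to 19.0 CPM and Cacng5 from 0.53 to 28.1 CPM. Next for Gria1 were Abca4, at 0.39, a retinoid transporter gene, and Tnfrsf12a, at 0.43, the receptor for TWEAK, whose mean level was 67.6 CPM in adult NSC and 4.3 in OPC. Abca4 was near the floor, with means of 1.87 CPM in adult NSC, 0.727 in postnatal NSC and 0.077 in OPC. For Cacng5 the closest was Ttc39aos1 (0.27), and Eva1c (0.38) came after Gria1.

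Cacng4 was the ninth closest gene to Gria2, at 0.23, and Gria2 the fourth closest to Cacng4. The counts of Gria2 and Cacng4 kept a ratio of 1.43 to 2.68 over the 12 libraries. The genes closest to Gria2 were Ncam2 (0.15), a neural cell adhesion molecule, with 105 CPM in OPC against 40.1 in postnatal and 19.9 in adult NSC, then Smarca1 (0.17), a chromatin remodeller, and Edil3 (0.18), an integrin ligand. The gene closest to Cacng4 was Grid1 (0.21), which encodes a delta glutamate receptor, followed by Tbc1d30 and Pcyt1b (0.22 each). Gria4 was most like Mmp16 (0.38), a membrane-bound metalloproteinase gene, and the adhesion genes Pcdh11x and Cntn1 (0.43 each), and its distance to Cacng4 was 0.56. Cacng7 was closest to Cyld (0.13), a deubiquitinase gene, Gria3 to Spred3, Dock10 and Nudt11 (0.13 each), and Cacng8 to the ribosome biogenesis gene Grwd1 (0.15), then Aen (0.17) and Gpatch4 (0.18). The profiles of Gria3, Cacng7 and Cacng8 were flat, with own variation of 0.45, 0.51 and 0.61, so many genes lay close to them.

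**Figure D4:**
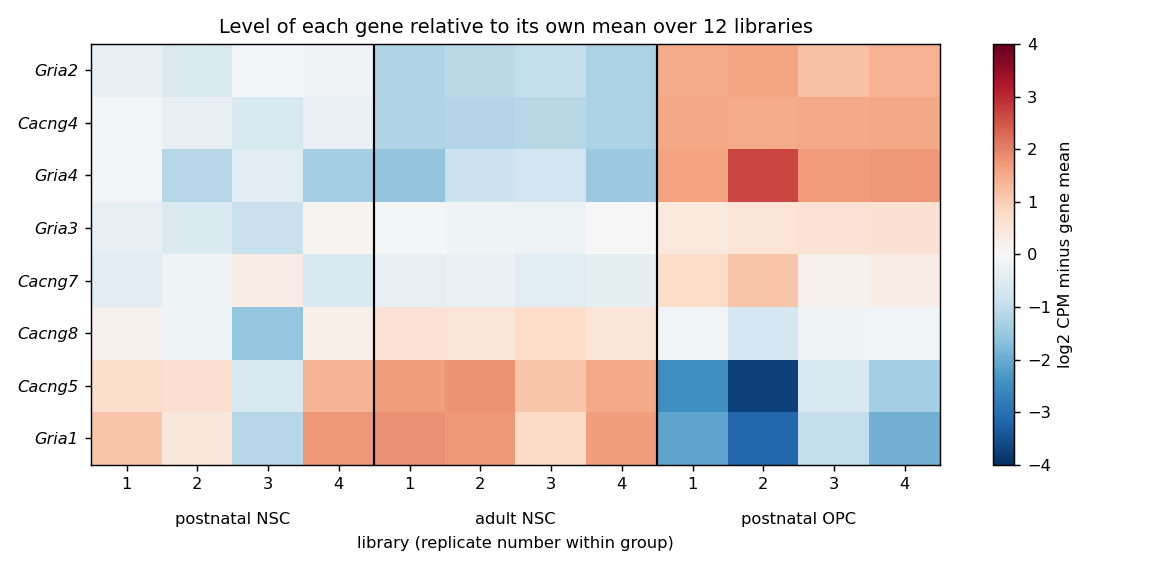
Log2 CPM of each gene minus its own mean over the 12 libraries (colour scale, log2 units), with libraries in columns by group and replicate. Gria2, Cacng4 and Gria4 share a red OPC block, and Gria1 and Cacng5 share a blue one that is deepest in OPC replicate 2 and palest in OPC replicate 3.

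The neighbouring genes of the TARP clusters did not move as blocks. Cacng4 rose in OPC and Cacng5, its neighbour on the same strand, fell there, while Cacng7 rose and Cacng8, next to it, was not called against postnatal NSC. The other members of the gamma family were nearly silent and did not pass the filter. Cacng2 had 17 counts in all postnatal NSC libraries together, none in adult NSC and 10 in OPC. Cacng3 had 9, 5 and 1 in the same order, Cacng1, the skeletal muscle calcium channel subunit gene, 6, 0 and 14, and Cacng6 19, 20 and 4.

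Among 11 other AMPA receptor auxiliary subunit genes, 9 were tested. In OPC against postnatal NSC 4 rose and 3 fell (median log2 0.43), in adult against postnatal NSC 1 rose and 6 fell (median -1.12), and in OPC against adult NSC 6 rose and 1 fell (median 1.62). The largest rise against postnatal NSC was that of Shisa7, at 25.6 ± 6.64 CPM there and 3.60 ± 0.855 CPM in postnatal NSC (SD, n = 4), a log2 fold change of 2.83 ± 0.29 (edgeR adjusted p = 2.02e-05). In adult NSC Shisa7 stood at 1.15 ± 0.540 CPM. Against adult NSC the gene with the largest fitted rise was Gsg1l, with 219 counts in the 4 OPC libraries together, 119 in postnatal NSC and 1 in adult NSC. Shisa6 rose from 6.18 ± 2.39 to 36.8 ± 13.4 CPM in OPC, by 2.57 ± 0.32 on the log2 scale (edgeR adjusted p = 6.33e-05). In adult NSC Shisa6 stood at 11.9 ± 1.37 CPM, called higher than in postnatal NSC (log2 0.95 ± 0.31, edgeR adjusted p = 0.0217). That call was lost in 3 of 20 alternatives. Shisa6 and Shisa7 encode membrane proteins of the Shisa (CKAMP) family that alter AMPA receptor gating. Shisa9, of the same family, had 13.6 ± 11.7 CPM in postnatal NSC, 15.7 ± 8.81 in OPC and 0.879 ± 0.306 in adult NSC, and was 15.3-fold lower in adult than in postnatal NSC (edgeR adjusted p = 0.00103). Cnih2 encodes a cornichon, an auxiliary subunit that slows the channel, and was highest in postnatal NSC, at 39.4 ± 14.1 CPM. It was lower in OPC, at 22.9 ± 3.81 CPM (log2 -0.79 ± 0.23, edgeR adjusted p = 0.0135), and in adult NSC, at 18.2 ± 1.78 CPM (log2 -1.12 ± 0.23, edgeR adjusted p = 0.00172). Prrt1 (SynDIG4) fell in OPC, from 6.18 ± 1.80 to 2.42 ± 0.848 CPM (log2 -1.35 ± 0.28, adjusted p = 0.00219).

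Grid1, which encodes a delta receptor, a relative of the AMPA subunits that acts as a synaptic organiser, was called in the same directions as Gria2 and Cacng4. It had 75.7 ± 6.44 CPM in OPC, 25.2 ± 2.42 in postnatal NSC and 10.4 ± 1.09 in adult NSC, with no overlap. The log2 fold change of OPC against adult NSC was 2.86 ± 0.11 (edgeR adjusted p = 4.17e-09), and that of adult against postnatal NSC -1.27 ± 0.11 (edgeR adjusted p = 5.08e-06).

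Of 6 genes for receptor assembly in the endoplasmic reticulum, all tested, 2 rose and 1 fell in OPC against postnatal NSC (median 0.12), 2 rose and 3 fell in adult against postnatal NSC (median -0.13), and 2 rose and 2 fell in OPC against adult NSC (median 0.28). Cpt1c, whose product aids surface delivery of the Gria1 product, fell from 100.9 to 63.5 CPM in OPC (log2 -0.67 ± 0.11, edgeR adjusted p = 0.000439). Porcn, an acyltransferase gene whose product is found in AMPA receptor complexes, was lower in adult than in postnatal NSC, at 7.81 ± 0.524 against 22.4 ± 5.61 CPM (log2 -1.52 ± 0.22, edgeR adjusted p = 0.000212).

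Of 19 trafficking and scaffold genes tested, 6 rose and 7 fell in OPC against postnatal NSC (median 0.02), 1 rose and 7 fell in adult against postnatal NSC (median -0.06), and 10 rose and 7 fell in OPC against adult NSC (median 0.22). Arc, the immediate early gene whose product removes AMPA receptors from the surface, had 191.0 ± 100.3 CPM in postnatal NSC (92.6 to 292), against 13.1 ± 9.75 CPM in OPC (0.652 to 22.1) and 47.5 ± 4.50 CPM in adult NSC. It was 14.7-fold lower in OPC than in postnatal NSC (log2 -3.88 ± 0.69, edgeR adjusted p = 0.000782), the largest change of the list. Akap5, the anchoring protein that holds kinases and calcineurin near the receptor, rose from 10.8 ± 1.81 to 22.3 ± 4.82 CPM in OPC (log2 1.05 ± 0.20, edgeR adjusted p = 0.00102). It stood at 5.76 ± 1.43 CPM in adult NSC, the same order of groups as for Gria2. Epb41l1, which encodes the 4.1N protein that binds the Gria1 product, rose 2.23-fold in OPC against postnatal NSC (log2 1.15 ± 0.14, edgeR adjusted p = 6e-05) while Gria1 fell. Syt1, the calcium sensor gene of vesicle release, rose 3.65-fold there (log2 1.87 ± 0.28, edgeR adjusted p = 0.000227).

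Of 11 clustering genes, whose secreted or adhesion products gather receptors, 4 rose and 2 fell in OPC against postnatal NSC (median 0.39), none rose and 3 fell in adult against postnatal NSC (median -0.17), and 7 rose and 1 fell in OPC against adult NSC (median 0.93). Lrrtm4 rose from 2.56 ± 0.816 to 16.0 ± 7.02 CPM in OPC (log2 2.65 ± 0.31, edgeR adjusted p = 4.38e-05). Lrrtm1 rose from 7.00 ± 2.08 to 25.7 ± 6.49 CPM (log2 1.88 ± 0.24, edgeR adjusted p = 9.04e-05) and was at 2.02 ± 0.412 CPM in adult NSC. Both encode leucine-rich repeat adhesion proteins of excitatory synapses. The neuronal pentraxin gene Nptx2 was the one that fell against adult NSC, from 96.6 ± 4.30 to 18.6 ± 11.4 CPM in OPC (log2 -2.38 ± 0.48, edgeR adjusted p = 0.00129).

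Of 21 genes for kinases and for RNA editing or splicing, 10 rose and 3 fell in OPC against postnatal NSC (median 0.42), 4 rose and 8 fell in adult against postnatal NSC (median 0.00), and 12 rose and 2 fell in OPC against adult NSC (median 0.51). Nova1, a neuronal splicing regulator gene, rose to 244 ± 37.9 CPM in OPC, against 101.0 ± 12.4 in postnatal NSC (log2 1.27 ± 0.12, edgeR adjusted p = 1.26e-05). Elavl3, an RNA-binding protein gene of the Hu family, rose from 22.6 ± 9.19 to 49.2 ± 15.1 CPM (log2 1.13 ± 0.27, edgeR adjusted p = 0.00541). Camk2b, a subunit gene of the kinase that phosphorylates the Gria1 product, fell as Gria1 did, to 54.3 ± 26.9 CPM in OPC against 237 ± 150.5 in postnatal NSC (log2 -2.13 ± 0.57, edgeR adjusted p = 0.00885), with 347 ± 20.3 CPM in adult NSC. Adarb1, the enzyme gene that edits the Gria2 transcript, was chosen for mention after its values were seen. It had 17.2 ± 1.92 CPM in postnatal NSC, 13.0 ± 0.995 in adult NSC and 23.0 ± 5.68 in OPC. OPC against adult NSC gave a log2 fold change of 0.82 ± 0.16 (edgeR adjusted p = 0.000994). The 0.42 ± 0.16 against postnatal NSC (adjusted p = 0.0422) became 0.21 without OPC replicate 2 (edgeR adjusted p = 0.164), and the call was lost in 14 of 20 alternatives (adjusted p from 0.0243 to 0.164).

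**Figure D5:**
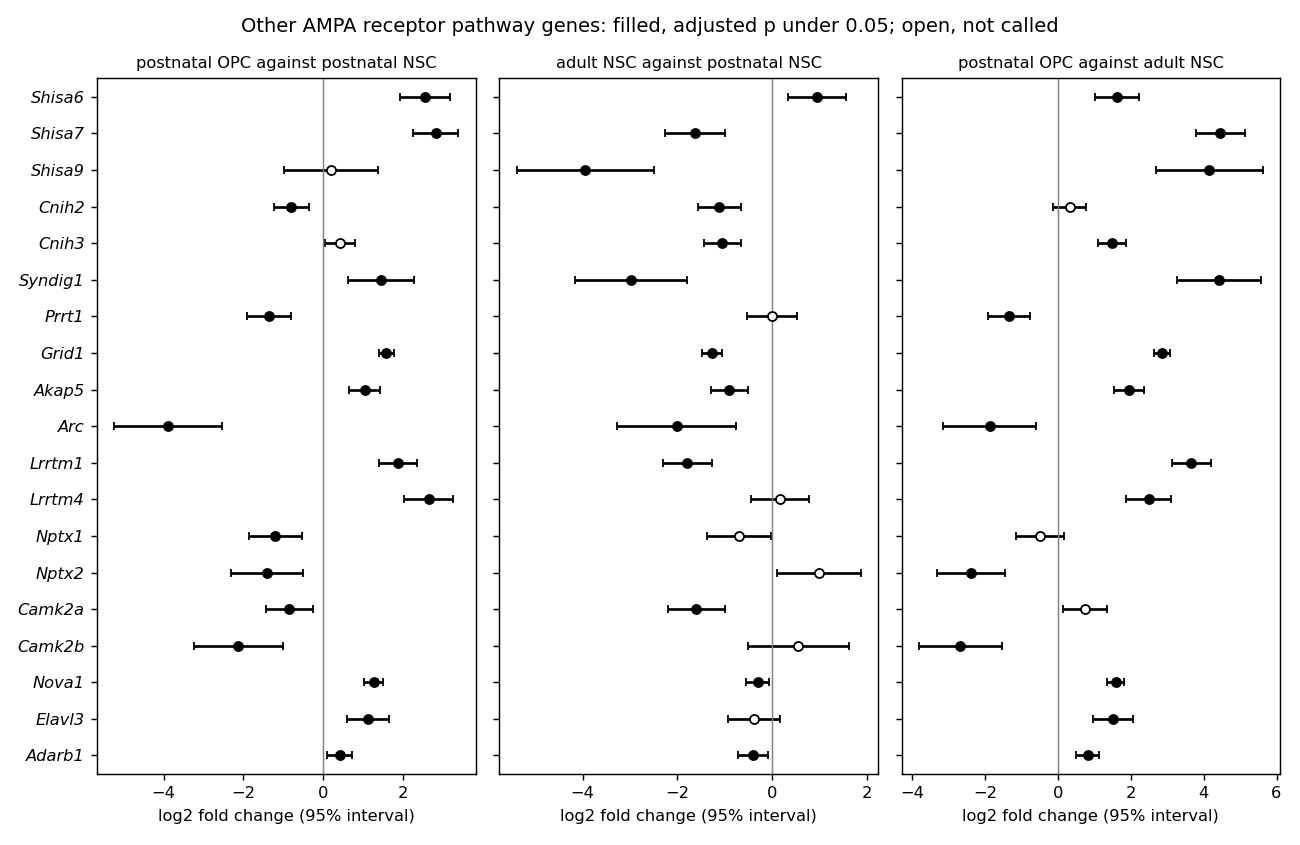
Log2 fold change (horizontal axis) of 19 other genes of the AMPA receptor pathway in the 3 comparisons, with bars for the 95% interval; the genes were picked for display after their values were seen, and filled points passed an edgeR adjusted p of 0.05. Grid1, Akap5 and Lrrtm1 lie right of 0 in both OPC comparisons and left of 0 in adult against postnatal NSC.

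Markers of other cell types moved with some of these results, and their part in them was not tested. The 12 neuron markers summed to 96.9 to 250 CPM in OPC, 45.6 to 126.0 in postnatal NSC and 34.2 to 47.4 in adult NSC. The excess over postnatal NSC lay mostly in Dcx, a gene of young migrating neurons, which had 36.5 to 162 CPM in OPC, 4.15 to 18.4 in postnatal NSC and 0.655 to 1.82 in adult NSC. Its log2 fold change in OPC against postnatal NSC was 2.71 ± 0.52 (edgeR adjusted p = 0.00123), and 2.08 without OPC replicate 2 (edgeR adjusted p = 0.00234). Tubb3 had 29.7 ± 12.1 CPM in OPC, 38.4 ± 19.8 in postnatal NSC and 9.37 ± 2.15 in adult NSC. The 10 markers other than these summed to 36.3 to 44.1 CPM in OPC, 22.1 to 45.4 in postnatal NSC and 26.4 to 33.4 in adult NSC, but went both ways. Rbfox3 (3.43-fold), Nefl (3.31-fold), Snap25 (2.08-fold) and Syt1 (3.65-fold) were called higher in OPC than in postnatal NSC. Gad1 had 7.18 CPM in OPC and 14.6 in postnatal NSC, and Gad2 0.531 and 3.17 CPM. The vesicular glutamate transporter genes Slc17a6 and Slc17a7 had means under 1 CPM in every group, and Slc17a6 had no count in OPC. The 6 astrocyte markers summed to 636 to 1120 CPM in OPC, 1020 to 1900 in postnatal NSC and 1270 to 1380 in adult NSC. The OPC and postnatal ranges overlapped, and Aldh1l1 had the highest mean of the 6 in each group. Aldh1l1 was called lower in OPC against both NSC groups (log2 -1.11 and -1.01), while Slc1a2 was called higher against both (0.98 and 1.14), and Aqp4 (1.79) and S100b (3.38) were called higher than in adult NSC. Markers of mature oligodendrocytes (6 genes) summed to 27.3 to 77.0 CPM in OPC, 34.9 to 328 in postnatal NSC and 15.2 to 19.5 in adult NSC. The 5 microglia markers summed to at most 1.97 CPM in any library. The 5 endothelial markers summed to 0.204 to 0.774 CPM in OPC, 0.576 to 12.3 in postnatal NSC and 12.1 to 13.5 in adult NSC, most of it Flt1 in the NSC groups. The 5 pericyte and fibroblast markers summed to 0.673 to 9.34 CPM in OPC, 8.94 to 15.0 in postnatal NSC and 3.72 to 6.35 in adult NSC. Flt1 and Col1a1 were called lower in OPC against both NSC groups, the direction of Gria1 and Cacng5. Flt1 fell from 7.24 CPM in postnatal and 12.1 in adult NSC to 0.296 in OPC, and Col1a1 from 9.74 and 4.30 to 0.345 CPM. Pdgfrb, of the pericyte and fibroblast list, did not fall. It was called higher in OPC than in adult NSC (log2 3.32 ± 1.11, edgeR adjusted p = 0.025), where the libraries overlapped. Against postnatal NSC it was not called (log2 0.65 ± 0.89, edgeR adjusted p = 0.575). Of its 265 OPC counts, 219 came from a single library. The defining endothelial genes Cldn5, Pecam1, Cdh5 and Tek had means under 1 CPM in every group.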

How the data were processed

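Per the labels' protocols, libraries were made from poly(A) RNA with a stranded kit. The deposited table holds read counts per gene, not normalised, for each of the 12 libraries. FastQC, STAR, featureCounts 1.22.2 and GRCm38 are named in the submitters' processing notes; the annotation and the handling of strand and of multiply mapped reads are not given in the sources used here. Symbols and gene models came from GENCODE M21, which held 55141 of 55401 identifiers. Exons of Gria2, Gria3, Gria4 and Cacng8 overlap same-strand microRNA models by 19 to 111 bases, so a few of their reads may have been assigned elsewhere or dropped.

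Genes were filtered with filterByExpr (minimum count 10, minimum total 15), scaled by TMM and fitted over all 12 libraries with edgeR 4.0.16 (quasi-likelihood, two-sided, Benjamini-Hochberg over 16135 genes) in R 4.3.3; the biological coefficient of variation was 22.6%. The Wald test of DESeq2 1.42.0 was an alternative, so ranges of adjusted p over alternatives span edgeR and DESeq2 values. Levels are CPM on TMM library sizes, and family shares use CPM per kb of all annotated exons. Errors are SDs of 4 libraries, or SEs for log2 fold changes. Precision is limited for Gria1 and Cacng5 in OPC, where counts were low and libraries spread widely. P-values measure the spread between these cultures.

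The 8 genes, the pathway lists and the markers were chosen with earlier results of these data known. All 8 genes are named whatever their result. From each pathway list, named genes come from the 4 largest called changes in each direction; Cacng1, Cacng2, Cacng3 and Cacng6 are named in any case. For likeness, the 3 closest named genes are given for members with at least 5 CPM in their highest group, passing over pseudogenes and undescribed symbols. Alternatives were another normalisation, filter, test or fit, thinned depth, a sex covariate, a replicate term, and libraries left out. Some listed genes are not reported here.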

Additional observations from a re-analysis of the deposited data

Results flagged for a closer look

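The 4 libraries of a group were checked for one far from the other 3, over the CPM and the family shares of the 8 genes. Of 48 such groups 3 stood out, where chance gives about 1 in 20. Gria4 in OPC replicate 2 was 56.4 CPM, against 26.9 to 29.5 CPM in the other 3 OPC libraries. Cacng8 in the same library was 12.3 CPM, against 18.0 to 18.6 CPM in the others. That library was low in G1/S genes, with a mean log2 CPM of 4.53, and the part of this in either value was not tested. The share of Cacng4 among the TARP genes was 22.0% in adult NSC replicate 3, against 19.5% to 19.7% in the other adult libraries.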

How the results depend on the processing

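Over 20 alternatives for each of 24 log2 fold changes of the 8 genes, 457 of 480 values kept their direction and side of the threshold, 17 lost a call, 1 gained one and 5 changed sign. All 17 losses were of Cacng8 against adult NSC, and all 5 changes of sign were of differences that were not called. Cacng8 in OPC against postnatal NSC was 0.0489, 0.0646 and 0.0339 without postnatal NSC replicate 1, postnatal NSC replicate 4 and OPC replicate 2, and -0.3373 without postnatal NSC replicate 3. Cacng7 in adult against postnatal NSC was 0.0246 without postnatal NSC replicate 3, -0.3344 without replicate 4 and 0.0162 without both low-G1/S libraries. The 1 gene called higher in adult NSC (Cacng8) became 0 with only those 2 groups in the fit and 0 with the Ddx3y level as covariate, and the number ranged from 0 to 2 when 1 library was left out; the cause was not tested. Of 2119 values for 106 results of other pathway and marker genes, 2051 were the same and 68 lost a call. With the longest transcript as length, the Gria3 share was 37.4% in postnatal NSC, 51.9% in adult NSC and 26.9% in OPC, the Gria1 share 12.0%, the Cacng4 share 18.7% and the Cacng8 share 24.4% in adult NSC, since the length itself changed. The labels do not say whether a replicate number marks the same litter across groups. The 12 correlations of same-numbered libraries (-0.363 to 0.325) could not settle this with 4 libraries a group. A fit with the replicate number as a block left every call of the 8 genes in place. In that fit Cacng8 was at 0.85 in adult against postnatal NSC (edgeR adjusted p = 0.0433). The fall of Gria1 and Cacng5 rested on few OPC reads, 13 in the lowest library. Their OPC libraries also spread widely, with a coefficient of variation of 63.9% for Gria1 and 80.2% for Cacng5. The part of each in the size of the fall was not tested.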
